A study of Rattus norvegicus with 6 samples.

Results

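The genes described here drive cells through DNA replication and mitosis, and they were read in rat chondrocytes, the cells of cartilage, with and without retinoic acid (RA), the active form of vitamin A. Members were chosen by symbol: 40 genes were listed, 18 for S phase and 22 for mitosis, and 38 of them (17 and 21) were matched to a gene name among 18923 genes. E2f1 and Ccnb2 are not analysed here. All 38 passed edgeR's filter on low counts, which kept 13438 genes.

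The cells were primary chondrocytes of wild-type female Sprague-Dawley rats aged 24 h, at passage 1 or 2. The CON group (n = 3) was kept for 24 h in high-glucose DMEM with 10% fetal bovine serum and penicillin-streptomycin. The RA group (n = 3) was kept for the same 24 h in that medium plus 1 µM all-trans RA, and the labels name no vehicle for the controls. The study's methods describe the samples of a group as biologically independent replicates. They do not say whether these were separate animals or separate cultures, so the p-values measure the spread between these samples.

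Entry into S phase starts when cyclin D with its kinases begins to phosphorylate the retinoblastoma proteins, which frees E2F transcription factors. E2F switches on the replication genes and cyclin E, which carries the phosphorylation further. The MCM complex is loaded on origins by Cdc6 and Cdt1 and unwinds the DNA. A later wave, driven by B-Myb with the MuvB complex and by Foxm1, switches on the mitotic genes through the CHR element and CCAAT boxes. In cartilage, flattened chondrocytes of the growth plate divide in columns before they enlarge, and freshly plated chondrocytes divide in serum.

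The promoters of the S phase and mitotic members differed in the letters they held. The letters were not read when members were chosen. They are textbook motifs of such genes, however, so the difference is a description and not independent of the choice. RefSeq windows of 300 bases (250 before and 50 after the start of a gene, rat build GRCr8) were found for 30 of the 38 members, and a gene with several windows counted once. The letters TTTGGCGC, TTTCCCGC, TTTCGCGC or TTTGCCGC, forms of the E2F element searched on both strands, stood in 8 of 13 S phase members, in 1 of 17 mitotic members (Cdk1) and in 2.37% of the 27457 genes with a window. The CHR letters TTTGAA, on either strand, stood in 11 of 17 mitotic members, in 1 of 13 S phase members (Mcm2) and in 19.4% of all genes. CCAAT, on either strand, stood in 14 of 17 mitotic and 8 of 13 S phase members, against 39.6% of all genes. These are matches of letters, not sites shown to be bound, and matches may overlap.

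Stretches of 120 bases, 110 before the start and 10 from it on, are given 5′ to 3′ on the strand of the gene to show what the letters look like. They were chosen because they hold them: Gins2, which also passed the test below, has a window without the E2F letters. Capitals mark the E2F letters in the S phase genes Mcm3 (chr9:30733737-30733856, minus strand), Mcm7 (chr12:22163169-22163288, minus strand) and Uhrf1 (chr9:1223076-1223195, plus strand), for which the window of 3 that holds these letters is shown. In the mitotic genes Cdc20 (chr5:137255790-137255909, minus strand) and Prc1 (chr1:143659371-143659490, plus strand) they mark TTTGAA and CCAAT. Positions are in GRCr8, while the submitters' processing notes name Rnor_6.0 for the counts.
Mcm3: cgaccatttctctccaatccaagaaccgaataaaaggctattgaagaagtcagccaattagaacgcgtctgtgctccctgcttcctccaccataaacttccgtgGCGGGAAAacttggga
Mcm7: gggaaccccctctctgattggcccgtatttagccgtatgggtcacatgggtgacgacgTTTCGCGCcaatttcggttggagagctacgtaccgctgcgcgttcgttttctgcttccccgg
Uhrf1: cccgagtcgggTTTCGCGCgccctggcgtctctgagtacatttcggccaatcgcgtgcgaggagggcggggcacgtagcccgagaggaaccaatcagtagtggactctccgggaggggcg
Cdc20: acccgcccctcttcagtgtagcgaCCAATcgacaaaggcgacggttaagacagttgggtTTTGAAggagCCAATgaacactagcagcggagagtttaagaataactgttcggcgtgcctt
Prc1: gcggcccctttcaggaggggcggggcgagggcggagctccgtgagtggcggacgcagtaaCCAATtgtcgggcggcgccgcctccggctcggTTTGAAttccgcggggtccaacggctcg
The E2F letters began 6, 52 and 99 bases before the start of Mcm3, Mcm7 and Uhrf1, and TTTGAA 51 and 18 bases before that of Cdc20 and Prc1.

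Total counts ran from 29370025 to 38007486 per sample, and every member held at least 452 reads in every sample. CON sample 1 stood apart from the other controls. Its median absolute difference over all genes tested was 0.195 on the log2 scale from CON sample 2 and 0.23 from CON sample 3, against 0.1 between CON samples 2 and 3 and 0.0822 to 0.104 among the RA samples. Of 10 chondrocyte markers all were present and 9 passed the test described below, lower in RA, with summed levels of 7873 to 9782 FPKM in CON and 4979 to 5304 in RA. Markers of endothelium and of red cells summed to at most 0.214 FPKM. Those of macrophages summed to 1.09 to 1.21 FPKM in CON and 1.38 to 1.54 in RA, without overlap, and neither of the 2 tested passed. Those of skeletal muscle summed to 4.69 to 6.00 FPKM in CON and 6.96 to 7.74 in RA, mostly Des. Of the 2 tested, 1, Myod1, was a DEG higher in RA. Myod1 held only 4 to 25 reads per sample and passed the test in 3 of 6 fits with a sample left out. Fibroblast and perichondrium markers were abundant, at 3728 to 4918 FPKM in CON and 4811 to 5065 in RA, mostly Col1a1 and Col3a1, and of the 6 genes Pdgfra passed the test upwards and Dcn and Postn downwards. The part of other cells in the results was not tested. Of 6 RA response genes 5 were DEGs higher in RA and 1, Rarres1, was a DEG lower in RA, at -0.87 on the log2 scale. Of the 5, Rarb was near the threshold (edgeR adjusted p = 0.0493) and passed the test in 1 of 6 fits with a sample left out. Cyp26a1 and Cyp26b1, which break down RA, had log2 fold changes of 3.35 and 2.65 (edgeR adjusted p = 2.13e-04 and 1.18e-05).

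Most S phase and mitotic genes lay slightly above their control level in RA, and a minority passed the test. Genes with an adjusted p below 0.05 in edgeR's quasi-likelihood test (Benjamini-Hochberg adjustment over all 13438 genes) are said to have passed the test, and DEGs are those that also had a log2 fold change beyond 0.58, or 1.5-fold. No member was a DEG, against 2.67% of all genes that were DEGs higher in RA and 2.29% lower. Nor was any a DEG by DESeq2, and 19 of the 38 had an unadjusted p below 0.05 (24% of all genes), all higher in RA. The test was passed by 5 of 17 S phase members (Uhrf1, Gins2, Rrm2, Mcm3 and Mcm7) and by 2 of 21 mitotic members (Aurkb and Cdc20), all higher in RA, where 5.31% of all genes were, and none passed it downwards, as 4.5% of all genes did. DESeq2 gave 8 and 3, adding Mcm5, Mcm6, Cdt1 and Plk1, where 6.85% of all genes passed and were higher. The median log2 fold change was 0.21 for the S phase set, 0.14 for the mitotic set and -0.0057 for all genes. Above 0 lay 16 of 17 S phase and 19 of 21 mitotic members, against 48.9% of all genes. The 3 RA samples were all above the 3 CON samples in log2 CPM in 12 S phase and 7 mitotic members, against 16.9% of all genes, and below them in none, against 15.1%. In bulk RNA a larger share of dividing cells and more of these transcripts per cell cannot be told apart.

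**Figure D1:**
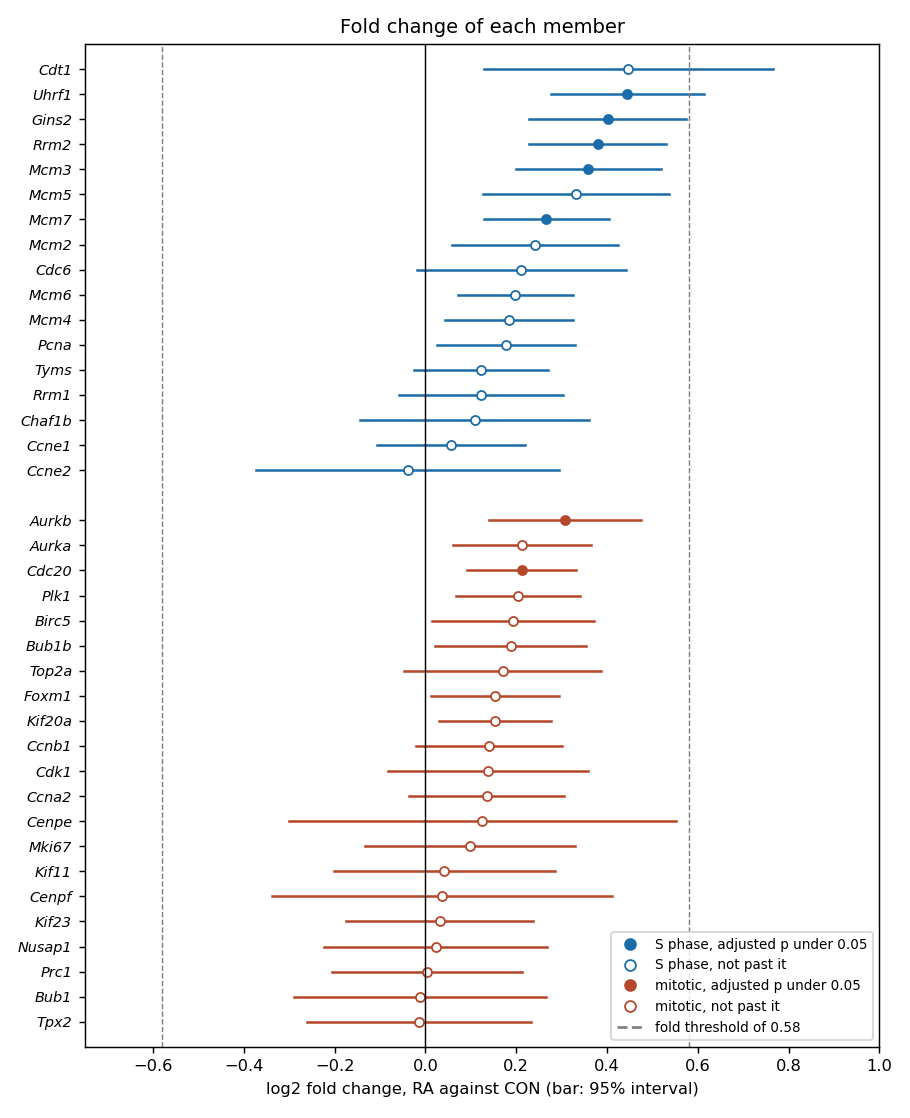
Log2 fold change of each of the 38 members, RA against CON, with its 95% interval (horizontal axis, no unit); blue points are S phase and red points mitotic members, filled where the adjusted p was below 0.05. All points lie inside the dashed lines of the 0.58 threshold, and the 5 filled S phase points and 2 filled mitotic points lie right of 0.

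The small size was itself measured. The 95% interval of the fold change lay wholly within the 0.58 threshold on either side for 36 of the 38 members, and for 8647 of all 13438 genes. The exceptions were Cdt1, from 0.13 to 0.77, and Uhrf1, from 0.28 to 0.61, both on the log2 scale. Standard errors ran from 0.0526 to 0.186 on that scale.

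The replication licensing genes had mean levels above control in RA, though most did not pass the test. All 9 had a positive log2 fold change (median 0.27), 8 of them without overlap between the groups (16.9% of all genes, higher in RA), and 3 passed the test (5.31%). Mcm3 (ENSRNOG00000012543), a subunit of the MCM2-7 helicase, was at 24.1, 26.8 and 27.3 FPKM in CON samples 1, 2 and 3 and at 33.7, 34.6 and 33.1 FPKM in RA samples 1, 2 and 3. All RA values exceeded all CON values, and the log2 fold change was 0.36 (standard error, SE, 0.0697, edgeR adjusted p = 0.014). Mcm7 (ENSRNOG00000001349), another subunit, was at 38.8, 41.2 and 41.1 FPKM in CON and at 47.7, 49.7 and 49.5 FPKM in RA, also without overlap. Its log2 fold change was 0.27 (SE 0.0599, edgeR adjusted p = 0.0264).

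The other 4 helicase subunits, Mcm2, Mcm4, Mcm5 and Mcm6, had log2 fold changes of 0.18 to 0.33, with groups that did not overlap, and did not pass the test (edgeR adjusted p from 0.0546 to 0.111). By DESeq2 the call changed for Mcm5 (adjusted p = 0.011) and Mcm6 (adjusted p = 0.027). Mcm4, with the smallest value, was at 43.2, 39.8 and 38.9 FPKM in CON and at 48.0, 45.0 and 46.7 FPKM in RA (SE 0.0618). The group means of the 6 subunits lay between 26.1 and 41.9 FPKM in CON and between 33.8 and 49.0 FPKM in RA. Gins2 (ENSRNOG00000017575), a subunit of the GINS complex that joins the helicase when origins fire, was the least abundant S phase member. It was at 4.85, 5.27 and 5.25 FPKM in CON and at 6.68, 7.14 and 6.67 FPKM in RA. The groups were well apart, with a log2 fold change of 0.40 (SE 0.0757, edgeR adjusted p = 0.0123).

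Cdt1, the loading factor that is destroyed once S phase begins, had with Uhrf1 the largest fold change of all members with all samples in, and did not pass the test. It was at 6.57, 8.66 and 9.81 FPKM in CON and at 11.9, 11.3 and 11.4 FPKM in RA. The RA samples lay close together while the CON samples were spread, CON sample 1 being the lowest, and the log2 fold change of 0.45 had a standard error of 0.139 (edgeR adjusted p = 0.0886). Without CON sample 1 it was at 0.30, below several other members, Uhrf1 being at 0.38. Without CON sample 3 Cdt1 was the 1 member that became a DEG, at 0.59 (edgeR adjusted p = 0.0234), while this p lay between 0.0229 and 0.228 under the alternatives tried and was 0.0246 by DESeq2. Cdc6, which loads MCM together with Cdt1, had 0.21 (edgeR adjusted p = 0.246) and was the licensing member whose groups overlapped.

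Of the 4 DNA synthesis genes, Rrm2 passed the test. Rrm2 (ENSRNOG00000054286), the small subunit of ribonucleotide reductase that is made in S phase, was at 77.2, 88.6 and 82.1 FPKM in CON and at 109.1, 108.0 and 108.3 FPKM in RA. It was the most abundant S phase member, and its RA samples were nearly equal. The log2 fold change was 0.38 (SE 0.0658, edgeR adjusted p = 0.00835). Its partner Rrm1, the large subunit, was at 62.4, 55.1 and 50.1 FPKM in CON and at 63.1, 61.0 and 59.9 FPKM in RA. The groups overlapped through CON sample 1, with a log2 fold change of 0.12 (SE 0.0790, 95% interval -0.058 to 0.30, edgeR adjusted p = 0.388). It was 0.058 without CON sample 3 and 0.21 without CON sample 1, where it passed the test (edgeR adjusted p = 0.0162). Pcna, the sliding clamp of the DNA polymerases, had 0.18 and Tyms, thymidylate synthase, 0.12, and neither passed the test (edgeR adjusted p = 0.149 and 0.29).

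Neither cyclin E gene, which act before replication, passed the test. Ccne1 was at 11.7, 12.5 and 11.4 FPKM in CON and at 12.4, 12.5 and 12.5 FPKM in RA. The groups overlapped, with a log2 fold change of 0.057 (SE 0.0709, 95% interval -0.11 to 0.22, edgeR adjusted p = 0.668). Ccne2 was at 12.4, 10.0 and 8.86 FPKM in CON and at 12.2, 9.02 and 9.43 FPKM in RA. Sample 1 was the highest in both groups, and the log2 fold change was -0.039 (SE 0.146, 95% interval -0.37 to 0.30, edgeR adjusted p = 0.9).

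Of the 2 genes that copy chromatin, Uhrf1 had the smallest adjusted p of all members. Uhrf1 (ENSRNOG00000048411), which brings DNA methylation to newly copied DNA, was at 15.5, 17.6 and 17.7 FPKM in CON and at 22.7, 23.4 and 23.6 FPKM in RA. The groups were far apart, the log2 fold change was 0.45 (SE 0.0732, edgeR adjusted p = 0.00658), and Uhrf1 was the 1 member that passed whichever of the 6 samples was dropped. Chaf1b, a subunit of the histone chaperone CAF-1, was at 10.2, 8.20 and 7.80 FPKM in CON and at 9.87, 9.04 and 9.51 FPKM in RA. CON sample 1 was the highest of the 6, and the log2 fold change was 0.11 (SE 0.110, edgeR adjusted p = 0.593), or 0.042 without CON sample 3 and 0.23 without CON sample 1.

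**Figure D2:**
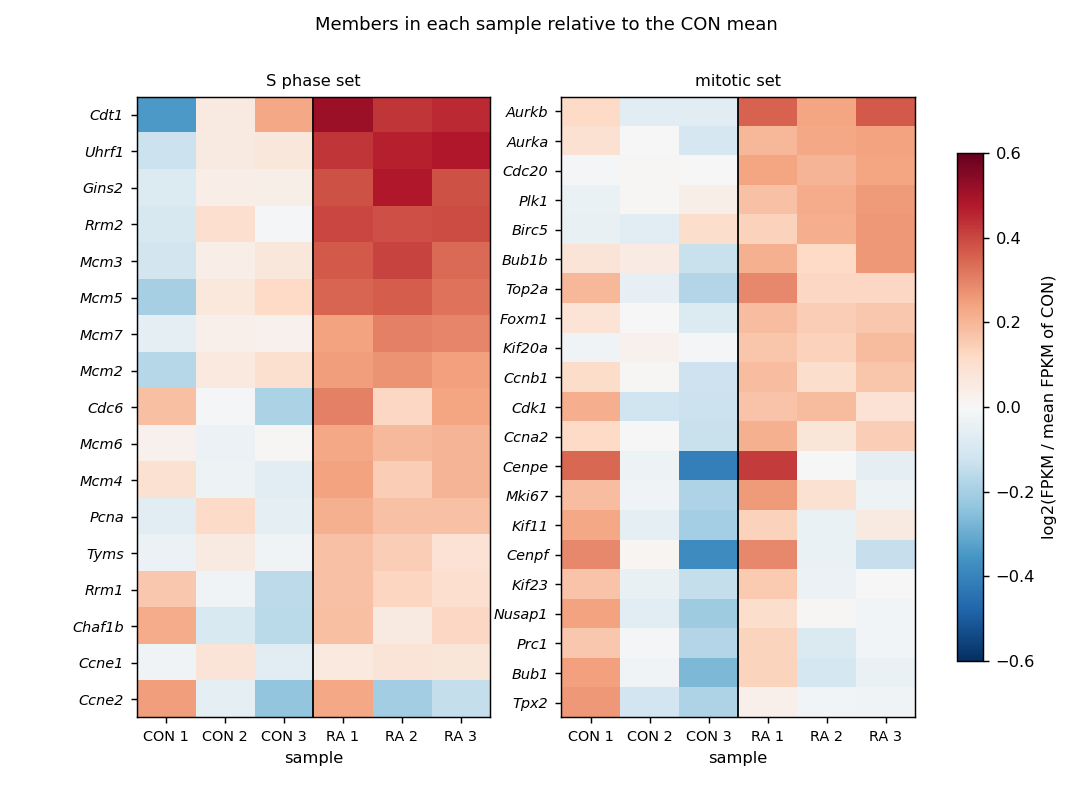
Log2 ratio of the FPKM of each member in each sample to its mean FPKM in CON (colour, red above and blue below 0), with S phase members left and mitotic members right, ordered by fold change. The RA columns are red for the upper S phase members; among the lower mitotic members CON sample 1 is red and CON sample 3 blue, as for Cenpe with 16.7 and 9.89 FPKM.

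Among the mitotic cyclins, Cdk1 and Foxm1, the shifts were near 0.14 with all samples in, and none of the 4 genes passed the test. Without CON sample 3 the shifts ran from 0.081 to 0.12, and without CON sample 1 from 0.19 to 0.26, where all 4 passed. Cdk1, the kinase that starts mitosis and the most abundant mitotic member, was at 94.9, 75.1 and 74.7 FPKM in CON and at 91.8, 93.1 and 86.7 FPKM in RA. CON sample 1 was above all RA samples while the other controls were below them, and the log2 fold change was 0.14 (95% interval -0.081 to 0.36, edgeR adjusted p = 0.422). Its cyclin Ccnb1 had 0.14, and Ccna2, which acts in both S phase and G2, was at 54.9, 50.6 and 46.0 FPKM in CON and at 58.6, 53.1 and 56.0 FPKM in RA. Both had overlapping groups, and Ccna2 had the smallest value of the group, 0.13 (SE 0.0742, edgeR adjusted p = 0.315). Foxm1, the transcription factor of the mitotic wave, was at 20.4, 19.2 and 18.2 FPKM in CON and at 21.9, 21.4 and 21.6 FPKM in RA. Its groups did not overlap, and it had the largest value of the group, 0.15 (SE 0.0616, edgeR adjusted p = 0.176).

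The 4 genes of mitotic kinases and survivin had a median log2 fold change of 0.21, against 0.19 for the checkpoint group, a difference that was not tested. Aurkb (ENSRNOG00000005659), the kinase of the chromosomal passenger complex that corrects faulty attachments, was at 16.7, 14.7 and 14.7 FPKM in CON and at 19.6, 18.1 and 19.8 FPKM in RA. All RA values were above all CON values, with a log2 fold change of 0.31 (SE 0.0733, edgeR adjusted p = 0.0339). Its partner Birc5, survivin, was at 45.3, 44.6 and 50.4 FPKM in CON and at 51.4, 54.4 and 56.0 FPKM in RA. Its groups were apart in FPKM and overlapped in log2 CPM, and its log2 fold change, 0.19, was the smallest of the group (SE 0.0778, edgeR adjusted p = 0.178). Aurka, the kinase of the spindle poles, had 0.21 and Plk1, polo-like kinase 1, 0.20, both without overlap between groups and without passing the test (edgeR adjusted p = 0.0893 and 0.0708), while Plk1 passed by DESeq2 (adjusted p = 0.0414).

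In the spindle checkpoint group, Cdc20 (ENSRNOG00000028415), the activator of the anaphase-promoting complex, was at 66.3, 67.0 and 66.5 FPKM in CON and at 78.4, 76.7 and 78.5 FPKM in RA. The samples of each group were nearly equal, and the standard error was the smallest of all members (log2 fold change 0.21, SE 0.0526, edgeR adjusted p = 0.0395). The checkpoint kinase Bub1 was at 24.4, 20.3 and 17.1 FPKM in CON and at 22.6, 19.1 and 20.0 FPKM in RA. Its groups overlapped fully, with a log2 fold change of -0.012 (SE 0.121, 95% interval -0.29 to 0.27, edgeR adjusted p = 0.964). Bub1b, a further checkpoint protein, had 0.19 (edgeR adjusted p = 0.163).

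No gene of the kinetochore and chromosome group passed the test. Mki67, the common marker of cycling cells, was at 43.5, 37.7 and 33.6 FPKM in CON and at 45.7, 40.7 and 37.5 FPKM in RA. The groups overlapped, with a log2 fold change of 0.098 (95% interval -0.13 to 0.33, edgeR adjusted p = 0.598), which was 0.022 without CON sample 3 and 0.20 without CON sample 1. Top2a, which untangles sister chromosomes, was at 58.3, 49.1 and 45.0 FPKM in CON and at 62.1, 55.5 and 55.4 FPKM in RA. With all samples in, Top2a had the largest value of the group, 0.17 (SE 0.0948, edgeR adjusted p = 0.319), with overlapping groups. It was 0.098 without CON sample 3 and 0.28 without CON sample 1, where Cenpe was higher, at 0.33. The kinetochore proteins Cenpe and Cenpf had 0.13 and 0.037 with the largest standard errors of all members, 0.186 and 0.164. Cenpf, the least abundant mitotic member, was at 13.5, 11.1 and 8.47 FPKM in CON and at 13.4, 10.7 and 10.00 FPKM in RA, with sample 1 the highest of both groups (edgeR adjusted p = 0.915).

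The spindle motors and microtubule proteins had a median log2 fold change of 0.027, the lowest of the mitotic groups. Kif20a, a motor of cytokinesis, was at 49.2, 50.9 and 49.7 FPKM in CON and at 56.1, 55.0 and 56.9 FPKM in RA. It had the largest value, 0.15 (SE 0.0538, edgeR adjusted p = 0.128), without overlap between groups. Prc1, which bundles the central spindle, was at 77.8, 69.2 and 61.6 FPKM in CON and at 76.4, 65.6 and 68.9 FPKM in RA. Its log2 fold change was 0.0032 (SE 0.0912, 95% interval -0.21 to 0.21, edgeR adjusted p = 0.988). Tpx2, an activator of Aurka, was at 59.4, 45.8 and 43.6 FPKM in CON and at 50.6, 49.0 and 48.9 FPKM in RA, so that CON sample 1 was the highest of the 6. Kif11, Kif23, Nusap1 and Tpx2 had log2 fold changes between -0.014 and 0.042.

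The mean log2 CPM of each set over its members sets S phase against mitosis sample by sample. For the S phase set it was 5.83, 5.87 and 5.86 in CON and 6.11, 6.08 and 6.08 in RA. The RA samples were higher by 0.24, with no overlap and a spread within groups (SD) of 0.0231 in CON and 0.0181 in RA. For the mitotic set it was 6.90, 6.72 and 6.64 in CON and 6.94, 6.84 and 6.86 in RA. Here RA was higher by 0.13 with an SD of 0.132 in CON, and CON sample 1 lay above RA samples 2 and 3. The S phase mean minus the mitotic mean was -1.07, -0.85 and -0.78 in CON and -0.82, -0.76 and -0.78 in RA. These values overlapped, and CON sample 3 lay within the range of the RA samples, so the S phase set did not stand out against the mitotic set beyond the spread among controls. As the members were chosen with earlier results of these data known, no p-value is given for the sets.

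**Figure D3:**
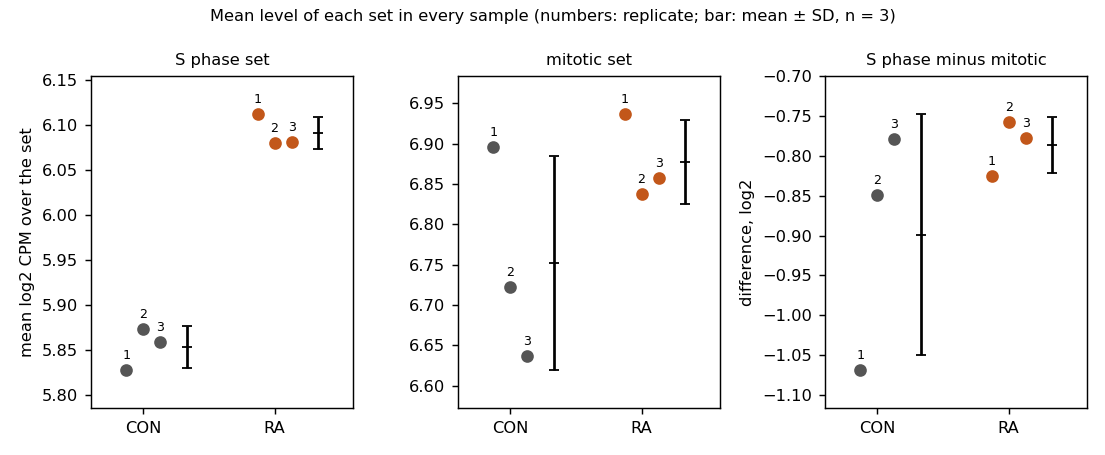
Mean log2 CPM over the S phase members (left), over the mitotic members (middle) and their difference (right) in each of the 6 samples; points are samples with their replicate number and bars are mean ± SD (n = 3). The S phase means of the RA samples (6.08 to 6.11) all lie above those of CON (5.83 to 5.87), while the mitotic means overlap.

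CON sample 1 differed most from the other controls here too. It was the highest control in 17 of 21 mitotic members, against 41.9% of all genes, and CON sample 3 was the lowest in 15, against 34.1%. In the S phase set CON sample 1 was the lowest control in 10 of 17 members, against 42.4% of all genes. The counts of members that passed were also taken with each sample left out. Without CON sample 1, 12 S phase and 10 mitotic members passed the test, all higher in RA and all 7 named above among them, while the share of all genes that passed and were higher was 8.65%. Mcm2, Mcm4, Mcm5, Mcm6, Cdc6, Cdt1 and Rrm1 were the S phase members gained, with log2 fold changes of 0.16 to 0.31. Ccna2, Ccnb1, Cdk1, Foxm1, Plk1, Aurka, Bub1b and Top2a were the mitotic members gained, with log2 fold changes of 0.18 to 0.28. The mitotic median became 0.20 and the S phase median 0.23.

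Leaving out any other sample lowered the counts in most cases. Without CON sample 2, or RA sample 1, 2 or 3, between 1 and 3 S phase members and no mitotic member passed the test, where 3%, 2.92%, 2.84% and 2.75% of all genes passed and were higher. Without CON sample 3, 7 S phase and no mitotic members passed (5.46% of all genes), and the mitotic median was 0.088. Mcm3 and Mcm7 passed in 2 of the 6 cases, Gins2 in 3, and Aurkb and Cdc20 in 1, that without CON sample 1. Rrm2 passed in 5, the exception being that without RA sample 2 (edgeR adjusted p = 0.0515). The S phase median stayed between 0.20 and 0.23 throughout. With all samples, no filter on low counts gave 6 and 1 members past the test (3.9% of all genes) and no scaling beyond library size 7 and 3 (5.79%). Cdc20 was the mitotic member lost without the filter (edgeR adjusted p = 0.062). Aurkb narrowly missed the test by limma on log2(FPKM + 0.1) and log2(FPKM + 1) (limma adjusted p = 0.05002 and 0.0505).

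**Figure D4:**
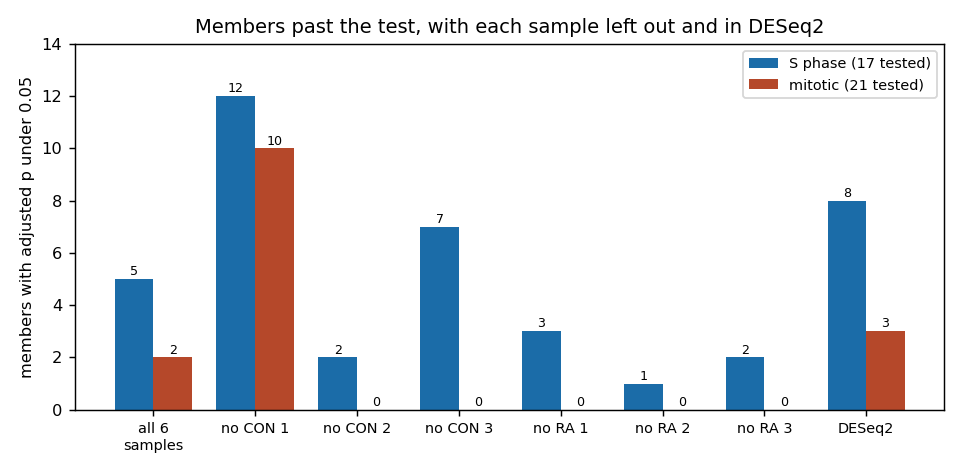
Number of members with an adjusted p below 0.05 (vertical axis) of 17 S phase (blue) and 21 mitotic (red) members, with all 6 samples, with each sample left out, and by DESeq2. Without CON sample 1 the bars reach 12 and 10, and without any other sample the mitotic bar is at 0.

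Other genes of replication and mitosis also lay mostly above 0, where 48.9% of all genes did. Their lists were chosen by function, with earlier results of these data known. The single lists differed. Kinetochore and checkpoint genes had a median log2 fold change of 0.045, with 12 of 20 above 0. For condensin, cohesin and anaphase genes the median was 0.17, with 20 of 22 above 0. Of 57 tested genes of origin firing, the replication fork, nucleotide and histone supply and S phase repair, 43 were above 0 (median log2 fold change 0.12), 9 passed the test upwards and none downwards, against 5.31% and 4.5% of all genes. Recql4, a helicase that helps origins to fire, was at 2.00, 2.04 and 2.23 FPKM in CON and at 3.34, 3.28 and 3.40 FPKM in RA. It was the 1 DEG of the 57, where 2.67% of all genes were DEGs higher in RA, with no overlap and a log2 fold change of 0.66 (SE 0.0873, edgeR adjusted p = 0.00227), though by limma on log2(FPKM + 1) the value was 0.49 and below the fold threshold. Gmnn, geminin, which binds and blocks Cdt1, rose, with a log2 fold change of 0.43 (edgeR adjusted p = 0.0274), lost its call when any of 5 samples was dropped, and was named for its value. Of 64 tested genes of the kinetochore, spindle, cytokinesis and chromosome condensation, 48 were above 0 (median 0.13), 5 passed the test upwards and none downwards, and none was a DEG. The 5 are a share near the 5.31% of all genes. Ube2c and Espl1, a ubiquitin enzyme and the protease of anaphase, had 0.44 and 0.49 (edgeR adjusted p = 0.0042 and 0.0072) and were likewise named for their values.

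Of 18 tested E2F, pocket and MuvB genes 1 passed the test, higher in RA, a share near the 5.31% of all genes. Of the 18, 9 were above 0 (median -0.013), and the groups did not overlap in 3 higher and 4 lower in RA, against 16.9% and 15.1% of all genes. The gene that passed was Mybl2, B-Myb, at 15.9, 17.4 and 15.6 FPKM in CON and 23.8, 22.4 and 23.2 FPKM in RA, a log2 fold change of 0.49 (edgeR adjusted p = 0.00209; singled out after its value was seen). Of 13 tested genes of D cyclins, their kinases and CDK inhibitors, 3 passed the test, all higher in RA (5.31% of all genes), and 2 were DEGs (2.67%), which act in opposite ways on G1. Ccnd1, cyclin D1, which pushes cells towards S phase, was at 87.6, 94.6 and 89.8 FPKM in CON and 187, 177 and 176 FPKM in RA (log2 fold change 0.98, edgeR adjusted p = 3.77e-05). Cdkn1c, p57, which blocks cyclin-dependent kinases, was at 81.0, 95.9 and 87.5 FPKM in CON and 200, 215 and 230 FPKM in RA (log2 fold change 1.27, edgeR adjusted p = 6.96e-05). Both genes had RA values far above those of CON.

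Of 14 tested p53 target genes, 2 passed the test upwards and 3 downwards, against 5.31% and 4.5% of all genes. Plk2 and Gadd45a were DEGs higher in RA, with log2 fold changes of 1.13 and 0.66, where 2.67% of all genes were, and Fas, a death receptor, was a DEG lower in RA (2.29% of all genes), at -0.66 (edgeR adjusted p = 0.00846). Fas was no longer a DEG without RA sample 3, at -0.62 (edgeR adjusted p = 0.0539), nor by limma on log2(FPKM + 1), at -0.53. Cdkn1a, p21, the best known p53 target and an inhibitor of cyclin-dependent kinases, was at 53.9, 62.0 and 66.2 FPKM in CON and at 59.1, 62.7 and 62.4 FPKM in RA. Its groups overlapped, with a log2 fold change of 0.0028 (95% interval -0.19 to 0.20, edgeR adjusted p = 0.989).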

How the data were processed

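Polyadenylated RNA of 6 samples (3 CON, 3 RA) was sequenced. The authors deposited read counts per gene and FPKM values for each sample. The submitters' processing notes name HISAT2, HTSeq 0.13.5 and the build Rnor_6.0, and the annotation and strand setting are not given in the sources used here, so overlapping and antisense genes may share reads. Counts were tested with edgeR 4.0.16 (R 4.3.3): TMM scaling, filterByExpr with a minimum count of 10, and the quasi-likelihood test with Benjamini-Hochberg adjustment over 13438 genes. DEGs had an adjusted p below 0.05 and an absolute log2 fold change above 0.58. FPKM served to show levels per gene length and, as log2(FPKM + 0.1), for limma 3.58.1. DESeq2 1.42.0 was a further alternative. In the shallowest sample 3 counts equal 0.102 CPM. The tests were also run on simulated counts with the same spread for all genes and no deviating control. That setting differs from these data, so it does not bear on calls that turn on CON sample 1. The members and lists were chosen with earlier results of these data known. Values in every sample are given for the largest and smallest fold change of each role group, the members that passed the test and the most and least abundant of each set; DEGs are named from the wider lists. The counts of members past the adjusted p alone under each alternative were added after seeing the data. Promoter letters were searched in RefSeq windows of build GRCr8, with no conversion of coordinates.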

Additional observations from a re-analysis of the deposited data

How the results depend on the processing

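Of the 494 alternative fits of single members, 413 kept direction and side of the threshold, 25 lost a call, 31 gained one and 25 changed sign. The sign changes concerned 9 members, none of which passed the test. Leaving out 1 sample, the log2 fold change ran from -0.18 to 0.10 for Ccne2, from -0.12 to 0.13 for Bub1, from -0.038 to 0.33 for Cenpe, from -0.11 to 0.20 for Cenpf, from -0.043 to 0.17 for Kif11, from -0.027 to 0.12 for Kif23, from -0.091 to 0.13 for Tpx2, from -0.066 to 0.16 for Nusap1 and from -0.069 to 0.088 for Prc1. Bub1 was at 3.1e-04 with no scaling beyond library size and at 0.011 and 0.010 by limma on log2(FPKM + 0.1) and log2(FPKM + 1), where Tpx2 was at 0.011 and 0.010. The cause was not tested.

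All genes gave 667 DEGs, 433 by limma on log2(FPKM + 1), 1319 without the fold threshold and 1017 with an unadjusted p. Without the fold threshold 5 S phase and 2 mitotic members counted, and leaving out 1 sample gave 0 to 1 S phase DEGs. The S phase members past the adjusted p numbered 1 to 12 with 1 sample left out and 8 by DESeq2; the mitotic members numbered 0 to 10, and 1 with no filter on low counts. Same-numbered CON and RA samples correlated at 0.16, -0.014 and 0.047 over all genes, so the numbers were not used as a block in the main fit. Whether they pair the samples in these genes was not tested. Sample 1 was the highest in 17 of 21 mitotic members in CON and in 13 in RA, against 41.9% and 36.2% of all genes. In the S phase set these counts were 5 and 9 of 17. A fit with the replicate block gave 684 DEGs and medians of 0.22 and 0.14, and changed no direction of a set. With the block Mcm5 and Cdt1 also passed the test (adjusted p = 0.0253 and 0.0482, edgeR), and the RA response gene Rarb did not (0.0526). Every member held at least 452 reads in every sample, and counting error was not separated from the spread among samples.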

Other observations

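Hells, a chromatin remodeller of replicating cells, was too low to be tested and was singled out after its values were seen. It was at 0.192, 0.0651 and 0.0517 FPKM in CON samples 1, 2 and 3 and at 1.91, 0.107 and 0.0762 FPKM in RA samples 1, 2 and 3. RA sample 1 alone was high, with 144 reads.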
